A study of Mus musculus domesticus with 12 samples.

Results

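The transcripts described here are those of 40 mouse genes known as targets of the transcription factor p53, read by gene symbol among the 55385 gene identifiers of each deposited table. All 40 were matched, and all 40 were among the 17650 genes that passed the filter on low counts. They were ordered by what their products do: 10 act in cell cycle arrest and signalling, 15 in apoptosis, 4 in DNA repair, 3 in feedback on p53 or as long non-coding RNAs, and 8 in metabolism or other processes. The rule lists the genes by name and uses no measured value, but it was written with earlier results of these libraries known.

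p53 is held at a low level by Mdm2, an E3 ubiquitin ligase that marks it for degradation. When DNA is damaged or ribosome production is disturbed, p53 escapes Mdm2 and switches on genes that stop the cell cycle, repair DNA, kill the cell or, through Mdm2 itself, end the response. Erythroid precursors divide fast while they mature, and activated p53 is known to limit their number in inherited anaemias of ribosome production.

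The series asked how the RNA exosome shapes the transcripts of developing red cells. This protein complex processes or destroys RNA through its catalytic subunits, among them Dis3 and Exosc10. Fetal livers of C57BL/6J mouse embryos at E14.5 were dissociated and depleted of cells with lineage markers, and the remaining cells were infected with a retrovirus carrying a short hairpin RNA (shRNA). They were cultured for 2 days under conditions that favour erythroid growth, and GFP+ cells without Ter119 and with intermediate or positive CD71 were sorted, a gate that the labels describe as erythroid precursors and proerythroblasts. The control group (shLuc) carried an shRNA against firefly luciferase, a gene that mice lack. The shDis3 group carried an shRNA against Dis3, and the shExosc10 group an shRNA against Exosc10. All 3 groups shared strain, stage, infection, culture and gate, and each held 4 libraries, named below by the replicate number in their titles. The labels do not say whether replicates came from separate cultures or animals, so each p reflects library-to-library spread, which may be technical. In bulk samples such as these, fewer cells of a type and less RNA per cell cannot be told apart.

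Levels are given as normalised CPM, the count of a gene scaled to library size, in the order of replicates 1 to 4. Library totals lay between 14936200 and 32397204 counts. Both targeted transcripts were low in every library with the matching shRNA: Dis3 measured 126, 126, 113 and 160.5 CPM in shLuc and 32.8, 24.7, 43.2 and 52.4 CPM in shDis3, and Exosc10 measured 85.4, 92.4, 102 and 113 CPM in shLuc and 30.8, 25.8, 18.9 and 30.2 CPM in shExosc10. Several libraries nevertheless resembled another group. With the 40 genes left out, the profile of shLuc replicate 4 was closest to that of shDis3 replicate 3 (Pearson r = 0.986 across genes), and that of shDis3 replicate 4 to that of shExosc10 replicate 1 (r = 0.981). Within each pair the mitochondrial shares were also close, at 9.79% and 10.26% for the first pair and 20.93% and 20.81% for the second. Across the 12 libraries this share ran from 9.79% to 20.93%. It was 20.88% for shLuc replicate 1, which belongs to neither pair. The part of this share in the levels of the targets was not tested. The 4 libraries of the pairs are called below the libraries that stand apart, and results are given with and without them. The name refers to this likeness to another group, not to distance from the own group. The highest correlation within the own group was 0.972 and 0.968 for shDis3 replicates 3 and 4. It was lowest, at 0.93, for shDis3 replicate 2, which is kept although its closest library was shLuc replicate 2 (r = 0.963). Other libraries under the cut-off of 0.98 were also closest to another group. These were shLuc replicate 2 and shExosc10 replicate 2, closest to each other (r = 0.972), and shExosc10 replicate 4, closest to shLuc replicate 2 (r = 0.966). Erythroid markers such as Gata1 and Klf1 were detected in every library.

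By group fold change most p53 targets were higher in shDis3 than in shLuc, but no target passed the test. In shDis3 replicate 3 only 12 of the 40 targets lay above their median over the 12 libraries. Of the 40 genes, 34 had a log2 fold change above 0 in shDis3 against shLuc, where 52.6% of all genes tested did, and their median was 0.63 against 0.02 over all genes. Each gene was tested with edgeR's quasi-likelihood F-test, and its p was adjusted by the Benjamini-Hochberg method across the 17650 genes, with a threshold of 0.05. By that test 0 of the 40 targets were called in either direction, as were 0% of all genes, and Dis3 itself had an adjusted p of 0.0581. At an unadjusted p under 0.05, 13 targets were higher, against 2.01% of all genes, and 0 were lower, against 2.07%. The 4 shDis3 libraries all lay above the 4 shLuc libraries for 3 targets (Ak1, Pmaip1 and Ei24), against 0.907% of all genes. DESeq2 called 1 target, Ak1, where it called 0.051% of all genes higher, and limma called 0. The smallest adjusted p by edgeR was that of Ak1, at 0.776, and every other target had an adjusted p of 1.0 in this comparison.

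**Figure D1:**
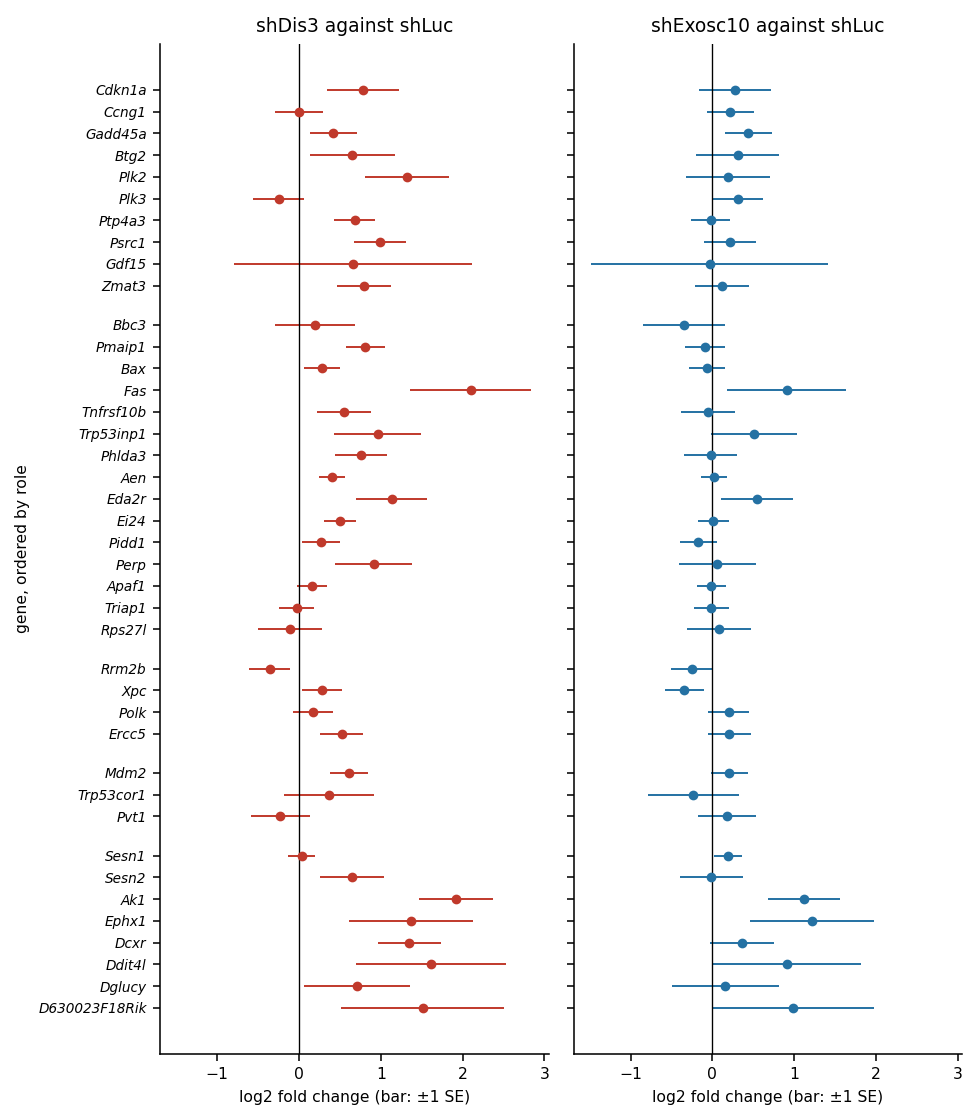
Log2 fold change of each of the 40 p53 targets (points, with bars of 1 SE from edgeR) in shDis3 against shLuc (left) and shExosc10 against shLuc (right), ordered by role. On the left 34 of 40 points lie above 0, with a median of 0.63; on the right 26 of 40 do, with a median of 0.17. Both panels share the shLuc libraries.

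Expressed per transcript length, as TPM, the targets covered a wide range of levels in these cells. The median over the 12 libraries was highest for Rps27l, which encodes a ribosomal-protein-like factor, at 254 TPM, followed by Ccng1 at 93.6 TPM and Bax at 83.6 TPM. In all, 17 targets had a median of at least 10 TPM. The 4 targets with a median under 1 TPM were Gdf15, D630023F18Rik, Ddit4l and Trp53cor1. Of the 40 genes, 17 overlap another annotated gene and 10 overlap one on the other strand, Cdkn1a, Polk and Rrm2b among them. The strand setting of the authors' counting is not given in the sources used here, so reads of such neighbours may be divided between the genes.

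Among the 10 arrest and signalling genes, 8 lay above 0 in shDis3 against shLuc, with a median log2 fold change of 0.67, and 4 of the 10 had an unadjusted p under 0.05. Cdkn1a (ENSMUSG00000023067.14, GRCm38 chromosome 17, 29090976 to 29100727, plus strand) encodes p21, the inhibitor of cyclin-dependent kinases through which p53 stops the cycle. It measured 45.7, 54.2, 64.5 and 18.7 CPM in shLuc, 128, 92.6, 41 and 53.6 CPM in shDis3 and 22.1, 80.7, 71 and 48.8 CPM in shExosc10. Replicates 1 and 2 of shDis3 were above every other library, replicates 3 and 4 lay within the range of shLuc, and shLuc replicate 4 and shExosc10 replicate 1 were the lowest libraries. Against shLuc, the log2 fold change in shDis3 was 0.78 (SE 0.44). Btg2, an antiproliferative partner of the mRNA deadenylation machinery, followed a like order, at 19.7, 25.5, 26.6 and 7.71 CPM in shLuc, 51.5, 41.8, 10 and 21.9 CPM in shDis3 and 7.58, 31, 34.7 and 24.9 CPM in shExosc10. Again shDis3 replicates 1 and 2 were highest and replicate 3 lay near the lowest library of each other group, so the groups overlapped and the log2 fold change was 0.65 (SE 0.52).

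Zmat3, which encodes a zinc finger protein that binds RNA, measured 59.4, 41.8, 39.1 and 30.8 CPM in shLuc, 108, 79.3, 73.2 and 34.3 CPM in shDis3 and 25.1, 50.9, 61.9 and 47.3 CPM in shExosc10. Here replicates 1, 2 and 3 of shDis3 lay above every library of both other groups and replicate 4 did not, with a log2 fold change of 0.79 (SE 0.33) and an unadjusted p of 0.0319. Ccng1, the gene of cyclin G1 and one of the most abundant targets, measured 531, 458, 393 and 167 CPM in shLuc, 404, 408, 344 and 389.8 CPM in shDis3 and 380.1, 530.3, 579.9 and 313 CPM in shExosc10. The 4 shDis3 libraries all lay inside the span of shLuc, which its replicate 4 stretched downward, and the log2 fold change was 0.00 (SE 0.29). Gdf15, a secreted stress cytokine, was barely detected, at 0.369, 0.579, 0.319 and 0 CPM in shLuc, 0.639, 1.14, 0.145 and 0.111 CPM in shDis3 and 0, 0.485, 0.701 and 0.0489 CPM in shExosc10. A count of 0 allows up to 3 counts, which is 0.101 CPM in shLuc replicate 4 and 0.114 CPM in shExosc10 replicate 1, counting error only. The groups of Gdf15 overlapped throughout, and its log2 fold change carried a wide error, at 0.66 (SE 1.45).

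Plk3, which encodes a polo-like kinase of the stress response, was among the 5 lowest targets by fold change in shDis3 against shLuc. It measured 7.13, 5.08, 8.07 and 5.97 CPM in shLuc, 7.11, 3.88, 7.23 and 3.70 CPM in shDis3 and 5.57, 5.99, 9.27 and 11.6 CPM in shExosc10, and the shDis3 libraries split into replicates 1 and 3, within the span of shLuc, and replicates 2 and 4, below every other library. The log2 fold change was -0.25 (SE 0.31). The related kinase gene Plk2 and the spindle gene Psrc1, described here after their values were seen, lay in the other direction. Plk2 measured 16.7, 19.4, 17.6 and 4.63 CPM in shLuc, 52.8, 43.7, 9.43 and 40.1 CPM in shDis3 and 8.94, 22.2, 24.7 and 10.2 CPM in shExosc10. Psrc1 measured 39.4, 45, 50.1 and 17 CPM in shLuc, 108, 78.9, 39.8 and 74.8 CPM in shDis3 and 35.8, 50.1, 48.9 and 41.5 CPM in shExosc10. For both genes shDis3 replicates 1, 2 and 4 were above all 8 other-group libraries and replicate 3 was not. Their log2 fold changes were 1.32 (SE 0.51) and 0.99 (SE 0.32), with unadjusted p of 0.0214 and 0.00777.

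**Figure D2:**
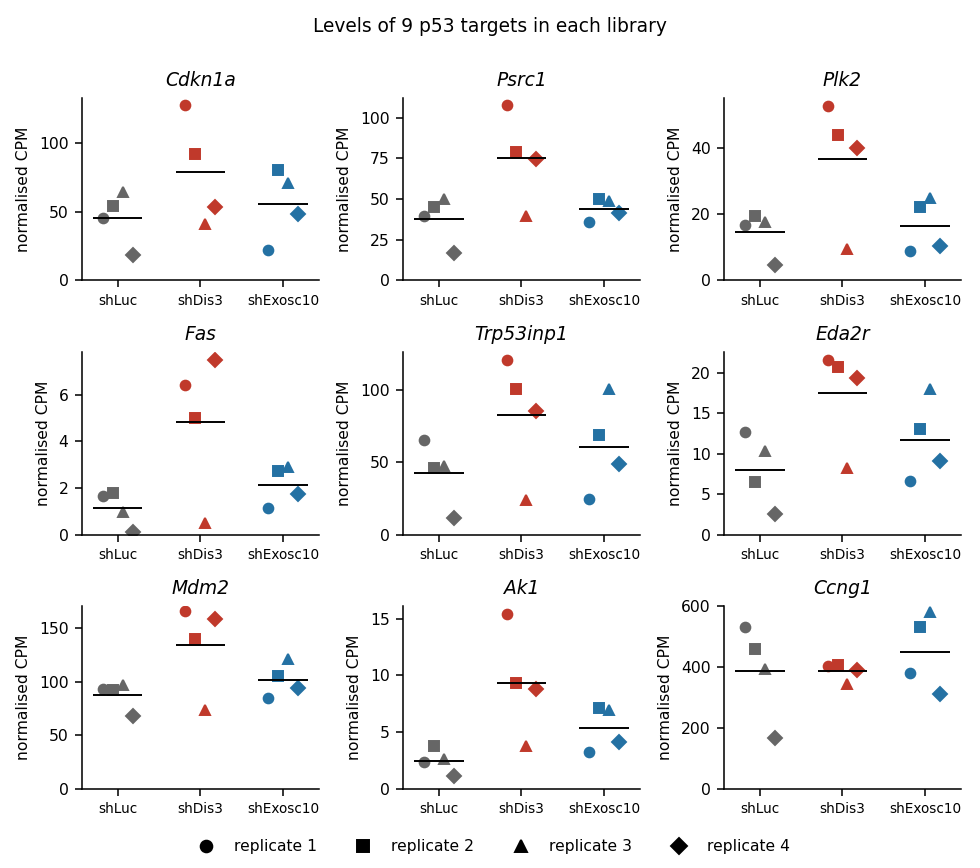
Normalised CPM of 9 p53 targets in the 12 libraries (linear axes from 0; each point is 1 library, marker shape gives the replicate number and the line the group mean of 4). Plk2 and Psrc1 were added after their values were seen. For Plk2, Psrc1, Fas and Eda2r shDis3 replicates 1, 2 and 4 lie above all other groups' libraries and replicate 3 among them, and Ccng1 shows no such step.

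Apoptosis was the largest role, with 13 of 15 genes above 0 in shDis3 against shLuc, a median log2 fold change of 0.50 and 6 genes with an unadjusted p under 0.05. Fas (ENSMUSG00000024778.13, chromosome 19, 34290666 to 34327772, plus strand) encodes a death receptor of the cell surface and had the highest fold change of the 40 targets. It measured 1.64, 1.81, 0.958 and 0.134 CPM in shLuc, 6.43, 5.02, 0.492 and 7.48 CPM in shDis3 and 1.14, 2.71, 2.9 and 1.76 CPM in shExosc10. Replicates 1, 2 and 4 of shDis3 were above all other libraries, while replicate 3 was below 3 of the 4 shLuc libraries. The log2 fold change was 2.10 (SE 0.74), with an unadjusted p of 0.0134. Eda2r, a further receptor of the tumour necrosis factor receptor family, had the same shape at a higher level, with 12.6, 6.54, 10.3 and 2.58 CPM in shLuc, 21.6, 20.7, 8.18 and 19.4 CPM in shDis3 and 6.59, 13, 17.9 and 9.10 CPM in shExosc10. Its shDis3 replicate 3 stood far below the other shDis3 libraries, and the log2 fold change was 1.13 (SE 0.44), with an unadjusted p of 0.0229.

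Of the genes that act inside the cell, Pmaip1 encodes Noxa, a BH3-only protein that primes mitochondria for death. It measured 19.1, 11.5, 12.8 and 13.8 CPM in shLuc, 26.7, 19.2, 19.4 and 34.7 CPM in shDis3 and 15.8, 14.9, 13.1 and 9.74 CPM in shExosc10. The lowest shDis3 library was above the highest shLuc library by less than 0.1 CPM and above every shExosc10 library, so neither pair of groups overlapped. The log2 fold change was 0.81 (SE 0.24), with an unadjusted p of 0.00501. Bbc3, the gene of the BH3-only protein Puma, gave no such separation: it measured 10.5, 7.36, 10.2 and 5.4 CPM in shLuc, 16.7, 9.86, 6.71 and 4.81 CPM in shDis3 and 1.25, 8.13, 7.67 and 9.25 CPM in shExosc10. Replicate 3 of shDis3 lay below 3 of the 4 shLuc libraries and replicate 4 below all of them, shExosc10 replicate 1 was the lowest of all, and the log2 fold change was 0.19 (SE 0.49). Bax encodes a pore-forming protein of the mitochondrial membrane. It measured 74.5, 59.3, 87.8 and 45 CPM in shLuc, 98, 75.1, 61.9 and 88.4 CPM in shDis3 and 73.3, 59.2, 72.1 and 50.4 CPM in shExosc10. The groups overlapped, with shDis3 replicate 3 below 2 of the shLuc libraries, and the log2 fold change was 0.28 (SE 0.22).

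Trp53inp1, a nuclear protein that promotes p53-dependent death, measured 65.5, 46.4, 47.5 and 11.4 CPM in shLuc, 121, 101, 24 and 85.3 CPM in shDis3 and 24.7, 69.1, 101 and 48.7 CPM in shExosc10. Replicates 1, 2 and 4 of shDis3 lay above all shLuc libraries, shExosc10 replicate 3 reached the same height, and the log2 fold change was 0.96 (SE 0.53). Phlda3, an inhibitor of the survival kinase Akt, measured 22.4, 18.7, 27.6 and 8.25 CPM in shLuc, 45.6, 31, 23.7 and 30.3 CPM in shDis3 and 13.1, 23.1, 20.4 and 19.1 CPM in shExosc10. Its shDis3 libraries all lay above shExosc10, and 3 of them above shLuc, with a log2 fold change of 0.76 (SE 0.32) and an unadjusted p of 0.0296. Aen, a nuclease that cuts DNA during apoptosis, varied little within shLuc, at 73.8, 68.9, 64.2 and 73.4 CPM, and measured 102, 69, 93.8 and 104 CPM in shDis3 and 76.5, 71.6, 72.3 and 63.8 CPM in shExosc10. Here replicates 1, 3 and 4 of shDis3 were above every other library and replicate 2 was not, with a log2 fold change of 0.40 (SE 0.16) and an unadjusted p of 0.0275.

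At the other end of the apoptosis genes were Triap1 and Rps27l, both among the 5 lowest of the 40 targets. Triap1, whose product protects cells from mitochondrial apoptosis, measured 15.7, 12.9, 12.1 and 11.6 CPM in shLuc, 13.1, 9.68, 12.3 and 16.1 CPM in shDis3 and 15.9, 9.91, 11.8 and 14.3 CPM in shExosc10, with full overlap and a log2 fold change of -0.03 (SE 0.21). Rps27l measured 129.8, 121, 113 and 35 CPM in shLuc, 69.2, 158, 44.8 and 97.9 CPM in shDis3 and 113, 119, 111 and 77.2 CPM in shExosc10. The highest of its 12 libraries was shDis3 replicate 2, shDis3 replicates 1 and 3 and shLuc replicate 4 were the 3 lowest, and the log2 fold change was -0.11 (SE 0.39). The other apoptosis genes had log2 fold changes of 0.16 for Apaf1, the core of the apoptosome, 0.27 for Pidd1, a scaffold of caspase activation, 0.50 for Ei24, 0.55 for the death receptor gene Tnfrsf10b and 0.91 for the membrane protein gene Perp.

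The 4 repair genes had the lowest median of the 5 roles, with 3 genes above 0, a median of 0.23 on the log2 scale and 0 with an unadjusted p under 0.05 in either direction. Rrm2b, the p53-controlled subunit of ribonucleotide reductase that supplies nucleotides for repair, was the lowest of all 40 targets by fold change. It measured 12.5, 15.7, 9.44 and 8.08 CPM in shLuc, 6.8, 10.5, 7.61 and 10.7 CPM in shDis3 and 8.07, 10.3, 8.31 and 11.8 CPM in shExosc10, with a log2 fold change of -0.36 (SE 0.25). The shLuc group held its 2 highest libraries, and the rest of the groups overlapped. Xpc, which recognises damage for nucleotide excision repair, measured 25.5, 24.9, 26 and 43.6 CPM in shLuc, 41.2, 26.4, 40.1 and 38 CPM in shDis3 and 32.1, 22.4, 18.9 and 21.4 CPM in shExosc10. Its highest library was shLuc replicate 4, the other shLuc libraries lay within about 1 CPM of each other and below all of shDis3, and the log2 fold change was 0.28 (SE 0.24). Ercc5, an endonuclease of the same repair route, measured 55, 47.2, 48.7 and 26 CPM in shLuc, 76.2, 56.2, 40.7 and 79.9 CPM in shDis3 and 41.8, 57.2, 62.1 and 42.9 CPM in shExosc10, with replicates 1, 2 and 4 of shDis3 above shLuc and a log2 fold change of 0.52 (SE 0.26). Polk, a polymerase that copies past damaged bases, measured 35.5, 32.8, 27.5 and 16.8 CPM in shLuc, 31.3, 34.4, 21.7 and 39.6 CPM in shDis3 and 25, 33.9, 42 and 28.5 CPM in shExosc10. All 3 groups of Polk overlapped, and the log2 fold change was 0.17 (SE 0.25).

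Of the 3 feedback and non-coding genes, 2 lay above 0, with a median log2 fold change of 0.37. Mdm2 (ENSMUSG00000020184.15, chromosome 10, 117688875 to 117710758, minus strand), the gene of the ligase that ends the p53 response, measured 93.3, 92.6, 97.3 and 68 CPM in shLuc, 166, 139.9, 73.5 and 159 CPM in shDis3 and 84.6, 105, 121 and 94.5 CPM in shExosc10. Replicates 1, 2 and 4 of shDis3 were above every other library and replicate 3 was above shLuc replicate 4 only. The log2 fold change was 0.61 (SE 0.23), with an unadjusted p of 0.0198. Trp53cor1 (ENSMUSG00000085912.2, chromosome 17, 29057430 to 29079179, minus strand), also called lincRNA-p21, is transcribed away from its neighbour Cdkn1a. It measured 1.16, 3.10, 2.05 and 0.872 CPM in shLuc, 3.35, 2.75, 1.13 and 2.07 CPM in shDis3 and 0.493, 1.09, 2.27 and 2.30 CPM in shExosc10, with overlap of all groups and a log2 fold change of 0.37 (SE 0.55). Pvt1, a long non-coding RNA transcribed beside Myc, measured 28, 11.1, 16.1 and 8.95 CPM in shLuc, 15.6, 16.4, 8.21 and 14.5 CPM in shDis3 and 13.1, 12.1, 22.5 and 24.9 CPM in shExosc10. It was among the 5 lowest targets, at a log2 fold change of -0.23 (SE 0.36), and its highest library was shLuc replicate 1.

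All 8 metabolic and other genes lay above 0 in shDis3 against shLuc, with a median log2 fold change of 1.36, and 2 of them had an unadjusted p under 0.05. Ak1 (ENSMUSG00000026817.14, chromosome 2, 32621758 to 32635058, plus strand), an adenylate kinase that balances the adenine nucleotides, measured 2.32, 3.78, 2.65 and 1.11 CPM in shLuc, 15.4, 9.32, 3.79 and 8.77 CPM in shDis3 and 3.22, 7.08, 6.94 and 4.16 CPM in shExosc10. The lowest shDis3 library and the highest shLuc library were nearly level, so the margin between the groups was small, and the shExosc10 libraries overlapped both. The log2 fold change was 1.92 (SE 0.45) in shDis3 and 1.12 (SE 0.44) in shExosc10, each against shLuc, with unadjusted p of 0.000683 and 0.0227. Dcxr, a reductase of sugars and dicarbonyls named here after its values were seen, lay higher by a log2 fold change of 1.35 (SE 0.39), with an unadjusted p of 0.0036.

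Sesn1 and Sesn2 encode stress-induced sestrins, which restrain the growth kinase mTORC1. Sesn2 measured 36.9, 31.4, 38.9 and 16.5 CPM in shLuc, 87.8, 44, 31.4 and 31.3 CPM in shDis3 and 13.2, 38.4, 39 and 32.3 CPM in shExosc10, with shDis3 replicate 1 well above the rest and a log2 fold change of 0.65 (SE 0.39). Sesn1 measured 14.5, 15.3, 13.6 and 16 CPM in shLuc, 14.8, 11.6, 17.6 and 16.7 CPM in shDis3 and 18.1, 16.4, 16.6 and 16.4 CPM in shExosc10, and its log2 fold change was 0.03 (SE 0.17). Sesn1 was the only target whose shExosc10 libraries all lay above the shLuc libraries, by a narrow margin. Ephx1, an epoxide hydrolase of detoxification, measured 0.422, 2.32, 0.456 and 0.939 CPM in shLuc, 5.49, 2.09, 0.665 and 2.55 CPM in shDis3 and 0.379, 3.40, 4.37 and 1.61 CPM in shExosc10, with overlap in both comparisons and a log2 fold change of 1.37 (SE 0.76) in shDis3. Ddit4l, a further inhibitor of mTORC1, measured 0.211, 1.16, 0.593 and 0.0670 CPM in shLuc, 2.29, 2.21, 0.116 and 1.67 CPM in shDis3 and 0.682, 0.728, 1.90 and 0.538 CPM in shExosc10, and its log2 fold change was 1.61 (SE 0.92). Replicates 1, 2 and 4 of shDis3 were above all shLuc libraries for Ddit4l, and replicate 3 was not. The transcript D630023F18Rik measured 0.264, 0.852, 0 and 0.603 CPM in shLuc, 0.263, 2.09, 1.01 and 1.63 CPM in shDis3 and 1.52, 0.688, 1.07 and 0.196 CPM in shExosc10, with a log2 fold change of 1.51 (SE 1.0). The groups overlapped for both of these scarce transcripts, and the count of 0 for D630023F18Rik in shLuc replicate 3 allows up to 0.137 CPM.

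**Figure D3:**
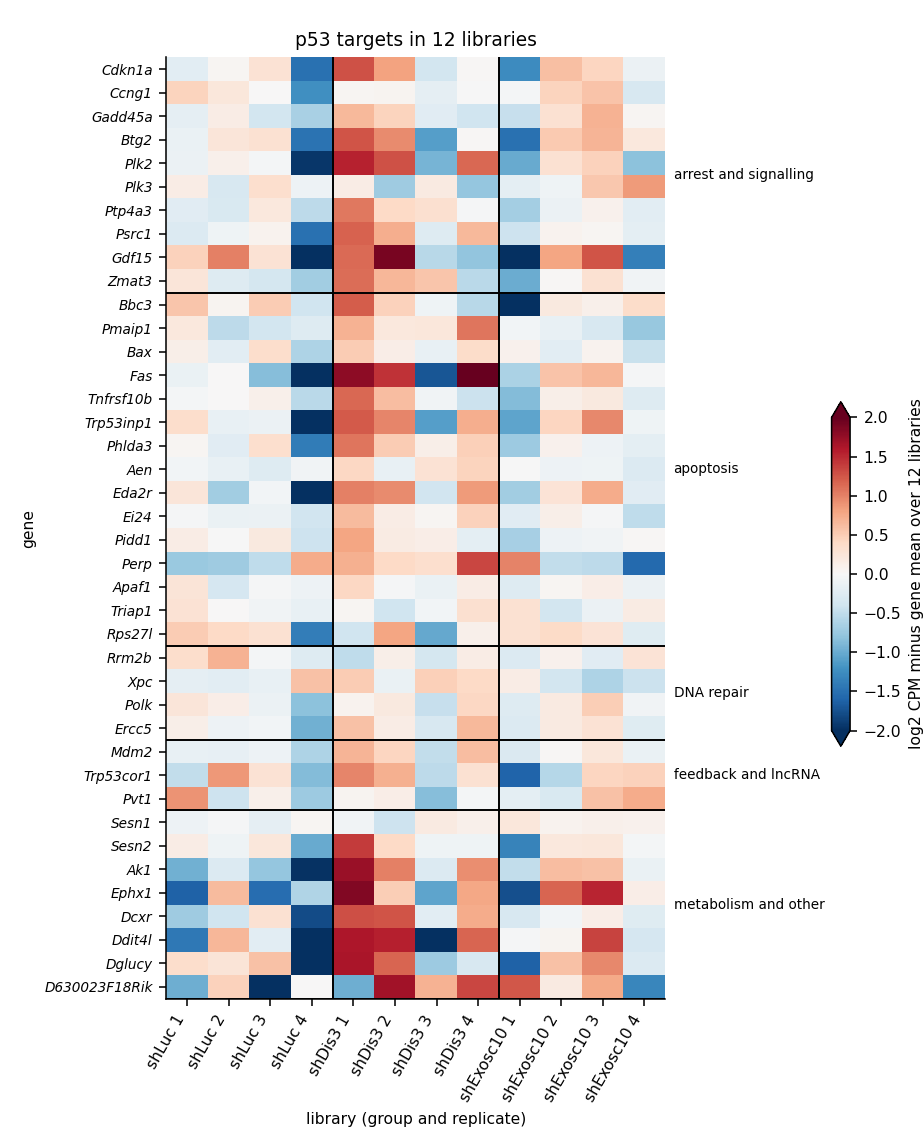
Log2 CPM (prior count 2) of the 40 p53 targets in the 12 libraries, each gene centred on its mean over the libraries; rows are ordered by role and vertical lines separate the groups. Red columns mark shDis3 replicates 1 and 2, in which 35 and 36 of 40 genes lay above their median over the 12 libraries, and the blue column marks shLuc replicate 4, with 3 of 40.

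Read library by library, the targets tended to be high or low in the same libraries. The number of targets above their own median over the 12 libraries was 21, 16, 16 and 3 of 40 in shLuc, 35, 36, 12 and 26 in shDis3, and 9, 28, 28 and 10 in shExosc10. Over all genes tested this share lay between 43.8% and 55.9% in every library. Within shLuc, replicate 4 was the lowest library for 31 of the 40 targets, against 35% of all genes. Within shDis3, replicate 3 was the lowest for 24 targets, against 26.2% of all genes, and replicate 1 the highest for 25, against 16.9%. Within shExosc10, replicate 1 was the lowest for 27 targets, against 44.7% of all genes. The 2 libraries that were lowest in shLuc and shDis3 are those that resembled each other across the transcriptome.

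The medians rested on these libraries. Leaving out each of the 12 in turn, the median over the 40 targets in shDis3 against shLuc ran from 0.37, without shDis3 replicate 1, to 0.76, without shDis3 replicate 3. Without shLuc replicate 4 it was 0.42. Within the matched pairs, with 1 library a side and no replicate check, the targets were also mostly higher in the shDis3 library. In shDis3 replicate 3 over shLuc replicate 4, 34 of 40 targets were higher, with a median log2 difference of 0.47, where 45.2% of all genes were higher. In shDis3 replicate 4 over shExosc10 replicate 1, 37 of 40 were higher, with a median of 0.80, where 46.7% of all genes were. Cdkn1a was higher by 1.13 and 1.28, Plk2 by 1.01 and 2.15 and Fas by 1.42 and 2.64 on the log2 scale in the first and the second pair. Mdm2 differed by 0.11 and 0.91, and Xpc by -0.12 and 0.24.

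**Figure D4:**
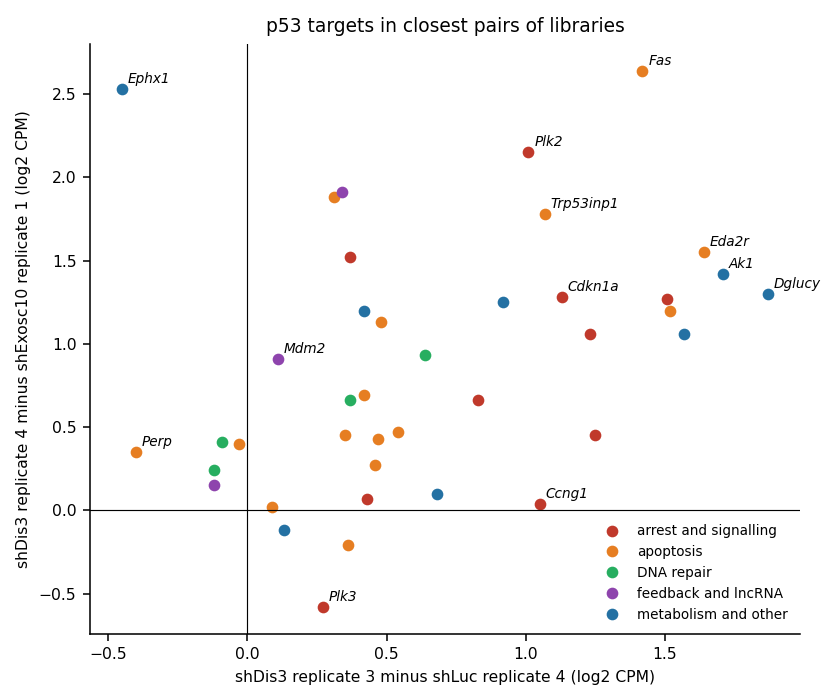
Log2 CPM difference of each p53 target in shDis3 replicate 3 minus shLuc replicate 4 (horizontal) and in shDis3 replicate 4 minus shExosc10 replicate 1 (vertical), the 2 pairs of libraries of different groups that were most alike across all other genes. Each point is 1 gene, coloured by role, and 34 and 37 of 40 points lie above 0 on the horizontal and vertical axes.

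Grouping the libraries by their correlation, with the targets left out, gave 3 clusters. Cluster 1 held shLuc replicate 1 alone. Cluster 2 held shLuc replicates 2 and 3, shDis3 replicate 2 and shExosc10 replicates 2, 3 and 4, and cluster 3 held shLuc replicate 4, shDis3 replicates 1, 3 and 4 and shExosc10 replicate 1. In cluster 2, 35 of 40 targets were higher in shDis3 than in shLuc, with a median log2 difference of 0.50, where 53% of all genes were higher. In cluster 3, 38 of 40 were higher, with a median of 0.95, where 52.6% of all genes were. The only shLuc library there was replicate 4, the lowest of its group for 31 of the 40 targets. Cluster 2 held 1 shDis3 library. The values within clusters and the fit below rest in part on these single libraries, and they are no separate check of the matched pairs. With the cluster as a term beside the group, the median in shDis3 against shLuc was 0.83, and 21 targets had an unadjusted p under 0.05 and lay higher, against 3.02% of all genes. None had an adjusted p under 0.05 by edgeR in that fit, where all 40 stood at 0.996 or above, and 1 gene, Dis3, was called. In it the log2 fold changes of Cdkn1a, Trp53inp1 and Eda2r were 1.48 (SE 0.43), 2.05 (SE 0.53) and 2.00 (SE 0.43), and that of Xpc was -0.04 (SE 0.17).

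Without the 4 libraries that stand apart, 3 shLuc, 2 shDis3 and 3 shExosc10 libraries remained, and 13 of the 40 targets passed the adjusted threshold of edgeR in shDis3 against shLuc. All 13 were higher, and 2.23% of the 21703 genes then tested were called higher. They were Cdkn1a, Btg2, Plk2, Psrc1 and Zmat3 among the arrest genes, Fas, Tnfrsf10b, Trp53inp1, Eda2r and Perp among the apoptosis genes, and Ak1, Dcxr and Dglucy among the metabolic genes. Ak1 rose by a log2 fold change of 2.06 (SE 0.33) with an adjusted p of 0.000645, Plk2 by 1.41 (SE 0.27) with 0.00367, Cdkn1a by 0.99 (SE 0.24) with 0.0205 and Fas by 1.94 (SE 0.47) with 0.0197, by edgeR. Mdm2 did not pass, at 0.67 (SE 0.21) with an adjusted p of 0.0887, and neither did any repair gene. The median over the 40 targets was 0.69 in this fit and 0.11 over all genes. In the same fit 8 of 12 megakaryocyte markers and 6 of 10 granulocyte markers were also called higher, with medians of 2.10 and 1.54, above that of the targets, and 4 of 10 stem cell markers were called higher, with a median of 0.98. The part of these cells in the levels of the targets was not tested. The calls rest on shDis3 replicates 1 and 2, in which 35 and 36 of the 40 targets lay above their median over the 12 libraries. Without the filter on low counts, 5 targets were called higher (Plk2, Psrc1, Eda2r, Ak1 and Dcxr), against 0.0894% of the 41382 genes in that fit.

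In shExosc10 against shLuc the targets lay close to the control level. Of the 40 genes, 26 lay above 0, where 52.2% of all genes did, with a median log2 fold change of 0.17 against 0.02. By edgeR 0 targets were called, as were 0.00567% of all genes, a share that is Exosc10 alone, and DESeq2 and limma called 0 targets as well. At an unadjusted p under 0.05, 1 target (Ak1) was higher, against 0.912% of all genes, and 0 were lower. The groups did not overlap for 1 target, Sesn1, against 1.02% of all genes. By role the median was 0.22 for arrest, -0.01 for apoptosis, -0.02 for repair, 0.18 for feedback and non-coding genes and 0.64 for metabolic and other genes. The overall median turned to -0.03 without shLuc replicate 4, and it was 0.31 without shExosc10 replicate 1, 0.09 without replicate 2 and 0.07 without replicate 3 of that group or without the 4 libraries that stand apart. The log2 fold change of Cdkn1a was 0.28 (SE 0.44), that of Mdm2 0.21 (SE 0.23) and that of Fas 0.91 (SE 0.73). This comparison shares its control libraries with that of shDis3, so the values of both are set side by side and not related to each other.

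The test of shDis3 against shExosc10 compares the knockdowns directly. Of the 40 targets, 31 lay above 0, where 51.2% of all genes did, with a median log2 fold change of 0.51 against 0.01. By edgeR 0 targets were called, against 0.0113% of all genes, which are Dis3 and Exosc10, and limma called 0. DESeq2 called 1 target, Pmaip1, higher, where it called 0.0907% of all genes higher, and edgeR without the filter called 1, Plk2, against 0.196%. At an unadjusted p under 0.05, 9 targets were higher, against 3.18% of all genes, and 0 were lower. The 2 targets whose groups did not overlap, against 1.91% of all genes, were Pmaip1 and Phlda3. The smallest adjusted p by edgeR was 0.666, for Pmaip1, at a log2 fold change of 0.90 (SE 0.24). The next smallest p-values were those of Ptp4a3, a phosphatase gene, Xpc and Ei24, with log2 fold changes of 0.69 (SE 0.25), 0.62 (SE 0.24) and 0.49 (SE 0.19) and an adjusted p of 0.764 for Ptp4a3 by edgeR. By role the median was 0.59 for arrest, 0.49 for apoptosis, 0.14 for repair, 0.41 for feedback and non-coding genes and 0.61 for metabolic and other genes. The overall median was 0.23 without shDis3 replicate 1 and 0.32 without shExosc10 replicate 1. Without the 4 libraries that stand apart, 4 targets were called higher (Plk2, Psrc1, Perp and Dcxr), against 1.32% of all genes.

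**Figure D5:**
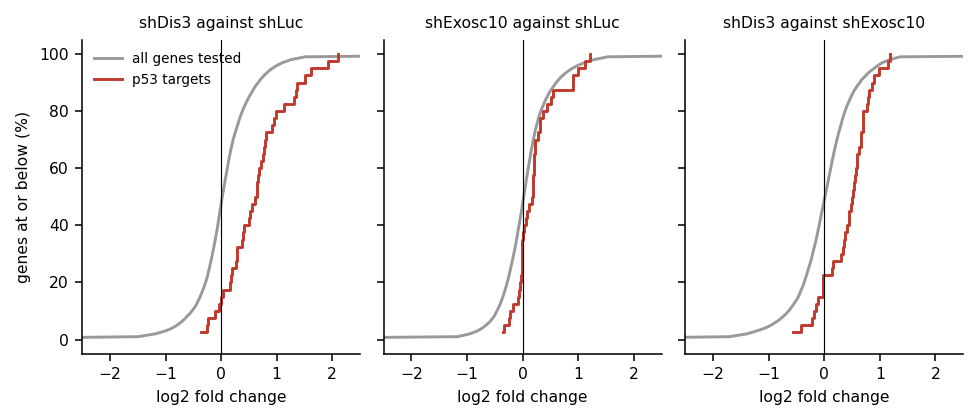
Cumulative share (%) of the 40 p53 targets (red) and of all 17650 genes tested (grey) at or below each log2 fold change, in the 3 comparisons. The red curve lies to the right of the grey one in both shDis3 panels (medians 0.63 and 0.51 against 0.02 and 0.01) and near it in shExosc10 against shLuc (0.17 against 0.02).

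The genes that control p53 were measured beside its targets, and none was called by edgeR in shDis3 against shLuc. Trp53, which encodes p53 itself, measured 122, 135, 155 and 146 CPM in shLuc, 163, 112, 142 and 111 CPM in shDis3 and 101, 126, 111 and 111 CPM in shExosc10, with overlapping groups and -0.08 (SE 0.17) as the log2 fold change between shDis3 and shLuc. Mdm4, the partner of Mdm2 in holding p53 back, measured 174, 125, 128 and 118 CPM in shLuc, 182, 160.0, 142 and 136 CPM in shDis3 and 125, 162, 195 and 180.0 CPM in shExosc10, at 0.19 (SE 0.19). Ppm1d, a phosphatase that switches the damage response off, measured 28.1, 20.6, 25.7 and 21.5 CPM in shLuc, 34.9, 23.5, 27.7 and 26.7 CPM in shDis3 and 28.5, 21.6, 26.6 and 22.5 CPM in shExosc10, at 0.24 (SE 0.18). All 3 genes overlapped between groups. Cdkn2a, which encodes the Mdm2 inhibitor ARF, did not pass the filter, and its highest library held 0.299 CPM. Of the 28 genes listed as regulators of p53, 25 were tested. Of these, 8 lay above 0 in shDis3 against shLuc, with a median log2 fold change of -0.10 and 0 with an unadjusted p under 0.05 in either direction. Without the 4 libraries that stand apart 26 were tested and 0 called by edgeR, with a median of -0.31. At an unadjusted p under 0.05, 6 were lower and 1 higher, where 1285 of all 21703 genes were lower and 1339 higher. Transcript levels do not measure the amount or activity of the p53 protein.

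A further list of 51 genes described as p53 targets had 49 genes tested, of which 35 lay above 0 in shDis3 against shLuc. The median log2 fold change was 0.26, 8 genes were higher at an unadjusted p under 0.05, against 2.01% of all genes, 0 were lower, and edgeR called 0. Without the 4 libraries that stand apart edgeR called 8 of the 49 higher, against 2.23% of all genes, and 0 lower, against 1.1%. The median was 0.27 in that fit, against 0.11 over all genes. The log2 fold changes in the fit of all libraries ran from -2.28 to 2.31. The lowest was that of Igfbp3, which encodes a binding protein of insulin-like growth factors, at -2.28 (SE 1.81), with counts of 0 in 2 shLuc and 3 shDis3 libraries. The groups did not overlap for 3 genes that lay higher in shDis3, against 0.907% of all genes. They also did not overlap for 1 gene that lay lower, Ccng2, the cyclin G2 gene, against 0.793%. Ccng2 measured 18, 10, 12.7 and 9.15 CPM in shLuc and 9.10, 9.14, 7.63 and 8.88 CPM in shDis3, a margin of less than the spread within either group, at -0.52 (SE 0.31). Both genes are named here after their values were seen. The leading gene of the list, Sulf2, a sulfatase of the cell surface named here after its values were seen, measured 1.48, 1.84, 1.69 and 1.61 CPM in shLuc, 13.8, 9.62, 5.03 and 4.59 CPM in shDis3 and 1.52, 3.16, 3.5 and 2.64 CPM in shExosc10. Every shDis3 library of Sulf2 lay above all shLuc and shExosc10 libraries, replicate 3 included, with a log2 fold change of 2.31 (SE 0.39) and an adjusted p of 0.272 by edgeR. Of 35 cell cycle genes that p21 is known to lower through the DREAM repressor, 11 lay above 0 and 24 below, with a median of -0.07. Of all genes, 52.6% lay above 0. With the cluster of libraries as a term 1 lay above 0 and 34 below, with a median of -0.19, where 54.9% of all genes lay above 0. Without the 4 libraries that stand apart 3 lay above 0 and 32 below, with a median of -0.27, where 57.0% of all genes lay above 0. By edgeR 9 were lower there at an unadjusted p under 0.05, against 5.92% of all genes. In that fit edgeR called 2 of them lower, against 1.1% of all genes: Ccne2, the cyclin E2 gene, at -1.05 (SE 0.25) with an adjusted p of 0.0168, and Bub1, a kinase gene of the spindle checkpoint, at -0.88 (SE 0.21) with 0.0204. With all libraries the 1 gene of that list with an unadjusted p under 0.05 was Ccne2, at -0.68 (SE 0.26). In shExosc10 against shLuc 15 of the 35 lay above 0 and 20 below with all libraries, with a median of -0.10. Without the 4 libraries that stand apart 8 lay above 0 and 27 below there, with a median of -0.16. Of all genes, 50.2% lay above 0 in that fit.

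Markers of other blood cells also differed between the libraries. Of 12 megakaryocyte markers, 12 lay above 0 in shDis3 against shLuc, with a median log2 fold change of 0.96, and their summed level was 76.8 to 414 CPM in shLuc, 309.5 to 367 CPM in shDis3 and 128 to 314 CPM in shExosc10. Of 10 granulocyte markers, 8 lay above 0, with a median of 0.75 and sums of 1064 to 4274, 2127 to 4859 and 1330 to 2109 CPM in that order. These sums were led by Mpo, with a median of 1303 CPM over the 12 libraries. The highest value of any other marker on that list was 363 CPM, for Elane. Of 18 erythroid markers, 5 lay above 0, with a median of -0.22 and sums of 2099 to 3899, 1914 to 3326 and 1936 to 4233 CPM. The macrophage list gave 6 of 7 tested genes above 0 and sums of 74.9 to 106, 90.8 to 125 and 57.0 to 116 CPM. Its sums were led by Lyz2, with a median of 75.3 CPM over the 12 libraries, and C1qa was at 0 in 10 libraries. The basophil marker Fcer1a was at 0 in all 12. With all libraries edgeR called 0 of these markers. Without the 4 libraries that stand apart the medians were 2.10 for the megakaryocyte list, with 8 markers called higher, and 1.54 for the granulocyte list, with 6. They were 1.05 for the macrophage list, with 1 called higher, and -0.13 for the erythroid list, with 2 called lower. In that fit edgeR called 2.23% of all genes higher and 1.1% lower, and the median over all genes was 0.11. The stem cell list gave 9 of 10 above 0, with a median of 0.40 that became 0.98 without those 4 libraries, with 4 markers called higher, the mast cell and basophil list 4 of 7, the lymphoid list 2 of 4 and the hepatocyte list 2 of 3. The part of these cells in the levels of the p53 targets was not tested. In shLuc replicates 1 to 3 the megakaryocyte sum was 76.8 to 125 CPM and the granulocyte sum 1064 to 1637 CPM, with 16 to 21 of the 40 targets above their median. In shDis3 replicates 1 and 2, where 35 and 36 targets lay above it, the megakaryocyte sums were 357 and 309.5 CPM and the granulocyte sums 4859 and 3779 CPM. In shLuc replicate 4, with 3 targets above their median, the sums were 414 and 4274 CPM, and in shDis3 replicate 3, with 12, they were 367 and 3280 CPM. In shDis3 replicate 4, with 26, they were 331 and 2127 CPM. In shExosc10 replicates 1 to 4, 9, 28, 28 and 10 targets lay above their median. Their megakaryocyte sums were 314, 157, 128 and 132 CPM, and their granulocyte sums 2109, 1669, 1330 and 1520 CPM.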

How the data were processed

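RNA of sorted cells was extracted with Trizol and made into libraries with the SMARTer Stranded Total RNA-Seq kit for picogram input, per the labels' protocols. Tools listed in the submitters' processing notes are STAR (version 2.5.3a) and RSEM (version 1.3.0), with the build GRCm38 (mm10). The strand setting and the annotation release, both not given in the sources used here, can change the counts of overlapping genes. The authors' tables hold, per the file headers, for each gene an RSEM expected count, an estimated read count that need not be whole, and a TPM value scaled to gene length and library. Of the expected counts, 4.55% were not whole, and all were rounded before testing. Symbols and coordinates came from GENCODE M21 on GRCm38, which matched 55144 of 55385 identifiers without their version.

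A quasi-likelihood model of edgeR (version 4.0.16, R 4.3.3) was fitted to all 12 libraries, with TMM factors, filterByExpr by group, group as the only term and Benjamini-Hochberg adjustment over 17650 genes. The biological coefficient of variation was 60%. CPM were scaled by TMM, and log2 CPM used a prior count of 2. TPM served for levels between genes and, as log2(TPM + 1), for limma 3.58.1. The alternatives were DESeq2 1.42.0 with the same model, size factors in place of TMM, no filter on low counts, limma, the replicate number as a block, clusters of libraries as a factor, the libraries that stand apart left out, and each library left out. A library stood apart where its closest library, at a Pearson r over 0.98, belonged to another group. The cluster factor with 4 clusters was chosen after seeing the data. The test was run on simulated counts with a smaller spread than these libraries and larger changes than those of most targets. That run does not show how the test performs on changes and spread like those here. Limits from a count of 0 describe counting error alone, as the reads carry no molecular identifiers.

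The members, their roles, the other gene lists and the tests were chosen with earlier results of these data known, and no p-value was computed over a list. Values in every library were given for 22 members picked by role, for the 5 highest and the 5 lowest by fold change in shDis3 against shLuc, and for the p53 regulators Trp53, Mdm4, Ppm1d and Cdkn2a. Genes named outside this rule are said to be.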

Additional observations from a re-analysis of the deposited data

Results flagged for a closer look

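In 6 of the 120 groups of 4 libraries examined (40 targets in 3 groups), the highest or lowest library stood so far from the others that its gap, relative to the range of the group, exceeded Dixon's 95% critical value. Chance alone gives about 1 in 20 such groups. Of these libraries, 3 were shLuc replicate 4. Perp measured 24.0 CPM there and 8.55 to 10.1 CPM in the other shLuc libraries, and Xpc measured 43.6 CPM against 24.9 to 26 CPM. Mdm2 was low there, at 68.0 CPM against 92.6 to 97.3 CPM. In shDis3 replicate 3, Eda2r measured 8.18 CPM, where the other shDis3 libraries held 19.4 to 21.6 CPM. In shExosc10, Sesn1 measured 18.1 CPM in replicate 1 against 16.4 to 16.6 CPM in the others, and Ddit4l measured 1.90 CPM in replicate 3 against 0.538 to 0.728 CPM.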

How the results depend on the processing

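In shDis3 against shLuc, the number of genes called by edgeR was 0. It was 33 with DESeq2, 1 with size factors in place of TMM, 123 without the filter on low counts, 1 with 3 or with 4 clusters of libraries as a factor, 724 without the libraries that stand apart, and 0 to 146 when each library was left out, the highest without shLuc replicate 4. The number of p53 targets called was 0, and it became 1 with DESeq2, 5 without the filter and 13 without the libraries that stand apart. The cause of these differences was not tested; the last setting drops 4 libraries and tests 21703 genes. The median over the targets, 0.63, kept its sign under all 20 alternatives, but several of these could hardly change it. It was 0.63 or 0.64 without a shExosc10 library, which is outside this comparison, and 0.61 with DESeq2 or size factors on the same libraries. With each library left out it ran from 0.37 to 0.76. It was 1.06 with 4 clusters, where shDis3 and shLuc libraries met only in the cluster whose sole shLuc library was replicate 4. In shExosc10 against shLuc, 1 gene was called, against 8 with DESeq2, 10 without the filter, 0 with limma, 7 without the libraries that stand apart and 0 to 2 with each library left out (0 without shExosc10 replicate 2 or 3, and 2 without shLuc replicate 4). The median of 0.17 ran from -0.03 to 0.31. In shDis3 against shExosc10, 2 genes were called, against 79 with DESeq2, 179 without the filter, 0 with limma, 1 with the replicate block, 466 without the libraries that stand apart and 1 to 2 with each library left out. The targets called, 0, became 1 with DESeq2, 1 without the filter and 4 without the libraries that stand apart. The median of 0.51 was 1.04 with 4 clusters and 0.23 to 0.66 with each library left out. With 4 clusters the shDis3 and shExosc10 libraries met only in the cluster whose sole shExosc10 library was replicate 1.

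The replicate numbers did not pair the libraries in a uniform way, by the correlation of deviations from the group means. It ran from 0.10 to 0.23 among libraries numbered 1 and from 0.37 to 0.77 among those numbered 2. Among those numbered 3 it ran from -0.45 to 0.24, and among those numbered 4 from -0.47 to 0.29. These values cannot show whether libraries of the same number shared a culture, which the labels do not say. With the replicate number as a block the medians were 0.63, 0.20 and 0.44 in the order above, and 0 targets were called in each comparison. Over all alternatives, 2312 fold changes of single targets kept their side of the threshold and moved by less than their spread. A further 63 moved by more, and 25 were newly called. As edgeR called 0 targets with all libraries, there was no called value whose sign could change. The counts include fits without a library of the group outside the comparison, where a fold change can move little. Under a single alternative 0 to 7, 0 to 10 and 0 to 5 of the 40 targets changed the sign of their fold change in the 3 comparisons, in that order. A biological coefficient of variation of 60% limits what 4 libraries per group can show, and the 4 targets under 1 TPM are measured with few counts.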
